A study of Homo sapiens with 6 samples.

Results

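The genes described are 40 genes of mitosis and the G2/M phase of the cell cycle, taken by symbol from a table of 23290 genes. All 40 symbols were in the table. All 40 also passed the filter on low values, for which FPKM, averaged over the libraries, had to reach 1. FPKM is a fragment count divided by transcript length and by the library's mapped fragments. The cells were U87, an established human glioblastoma line grown in DMEM with serum, in 6 libraries of ribosome-depleted total RNA. Both groups were infected with a retroviral vector: the 3 shCTR libraries came from cells with the scramble vector and the 3 shC8 libraries from cells with the vector against Caspase-8, a protease that starts apoptosis downstream of death receptors. The sources used here do not give the number of hairpins, their sequences or whether the cells were clones. The design text calls the libraries of a group biological replicates without saying whether cultures or infections were separate, and the p-values cover only the variation among these libraries, which may be technical.

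Cells enter mitosis when cyclin B bound to CDK1 becomes active, after CDC25 phosphatases remove the inhibitory phosphates that WEE1 and PKMYT1 placed. Polo and Aurora kinases then drive centrosome separation, spindle assembly and chromosome alignment, and the spindle checkpoint holds the anaphase-promoting complex (APC/C) inactive until every kinetochore is attached. The APC/C marks cyclin B and securin for destruction, after which sister chromatids separate and the cell divides at the central spindle. Most of these genes are transcribed together late in the cycle under FOXM1, MYBL2 and the MuvB complex, which binds promoters at an element called the cell cycle homology region (CHR), often beside CCAAT boxes bound by NF-Y. In bulk RNA, a different share of cells in G2/M and a different amount of RNA per such cell cannot be told apart.

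CASP8, the silenced gene, measured 15.1, 14.9 and 13.4 FPKM in shCTR 1, 2 and 3, against 4.39, 4.46 and 4.44 FPKM in shC8 1, 2 and 3, so every library matched its label (exact two-sided permutation p = 0.1, the smallest value 3 against 3 libraries allow). The files hold no counts and do not show the absolute depth. Relative depth, read from the spacing of the smallest values, was 1.09 to 1.2 times that of shCTR 1 in the other 5 libraries. Of the line's markers, VIM averaged 4318 FPKM in shCTR and 3785 FPKM in shC8, CD44 fell from a mean of 366 to 269 FPKM (limma adjusted p = 0.0131) and NES rose from 6.95 to 11.1 FPKM (limma adjusted p = 0.0293). The part of these shifts in the results was not tested. The marker CHI3L1 measured 23.3, 32.8 and 13.0 FPKM in the shCTR libraries against 27.6, 72.5 and 21.8 FPKM in the shC8 libraries. Its groups overlapped, and the log2 change was 0.69 (limma adjusted p = 0.364). The glial markers GFAP, S100B, OLIG2 and SOX2 were under 1 FPKM in every library and AQP4 was listed at 0 in all 6. Of the immune markers, CD3E was listed at 0 in all 6 libraries, PTPRC and ITGAM did not reach 1 FPKM, and CD68, which cells outside the immune system also express, averaged 153 FPKM in shCTR and 143 FPKM in shC8. Summed markers of endothelium reached at most 2.15 FPKM and of epithelium at most 1.43 FPKM in any library. Summed neuron markers, mostly SNAP25, lay between 18.1 and 20.9 FPKM in the shCTR libraries and between 17.0 and 18.4 FPKM in the shC8 libraries, with 0 of them called.

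The promoters show what these genes share beyond their function. RefSeq promoter windows (GRCh38.p14, from 250 bases before to 50 bases after an annotated start) were matched for 34 of the 40 genes. The CHR letters, TTTGAA or TTCGAA on either strand, were found in at least 1 window of 26 of the 34 genes (76.5%), against 19.5% of the 27305 genes with such windows and 15.8% of those among the tested genes. CCAAT on either strand was found for 28 of 34 (82.4%, against 39.7% of all genes with windows), and both motifs for 22 (64.7%, against 7.85%). An E2F-like motif (TTTGGCG in its first form, TTTCGCG in another and TTCCCGC in the last, on either strand) was found for 7 (20.6%, against 11.1%). Among the tested genes with windows, CCAAT was found for 44.2%, CHR and CCAAT together for 6.67% and the E2F-like motif for 18.6%. The E2F-like share of the 34 genes was thus near that of the tested genes. Of the further cell division genes described below, 120 had windows. Among these 120 the CHR letters were found for 48.3%, CCAAT for 60%, both for 28.3% and the E2F-like motif for 38.3%. The CHR and CCAAT letters were thus also common in other cell division genes, though less so than in the 34, and the E2F-like motif was more common there. None of the motif spellings contains another, and a match describes letters, not a binding site.

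The stretches printed here carry the element that most of the 40 genes have in common, for TOP2A and for 4 genes chosen by name as well-known members of the programme. Each is written 5′ to 3′ on the gene's own strand with the CHR letters in capitals, and where a window held several matches, the nearest one upstream of an annotated start was taken. For CCNB1, in whose window the CHR letters were not found, a CCAAT box is in capitals instead. In TOP2A the capitals are the reverse complement of TTTGAA.
CDK1 (chr10:60778453-60778482, plus strand): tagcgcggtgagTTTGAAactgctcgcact
PLK1 (chr16:23678848-23678877, plus strand): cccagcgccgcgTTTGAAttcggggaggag
MKI67 (chr10:128126435-128126464, minus strand): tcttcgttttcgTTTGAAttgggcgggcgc
TOP2A (chr17:40418030-40418059, minus strand): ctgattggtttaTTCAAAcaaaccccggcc
CCNB1 (chr5:69167083-69167112, plus strand): gccacgaacaggCCAATaaggagggagcag

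After Caspase-8 silencing the 40 genes differed little from the control. TOP2A, which encodes the topoisomerase that untangles sister chromosomes, was the 1 gene called higher, and 0 were called lower. A call was a Benjamini-Hochberg adjusted p under 0.05 over all 11598 tested genes in limma's moderated test on log2(FPKM + 1). The 1 gene called higher is 2.5% of the 40, against 7.14% of all tested genes called higher, and the 0 called lower stand against 4.94%. At an unadjusted p under 0.05 in the same fit, 8 genes were higher (20% of the 40, against 18.3% of all tested genes) and 1 was lower (2.5%, against 11.4%). Log2 changes ran from -0.16 for MAD2L1 to 0.29 for AURKB, with a median of 0.08 beside a median of 0.04 over all tested genes. In mean FPKM, these extremes are 10.3% lower and 23.2% higher in shC8.

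The spread between libraries bounded these changes closely. Standard errors on the log2 scale lay between 0.0553 and 0.103. The 95% interval of every one of the 40 changes lay inside -0.5 to 0.5, which held for 74.3% of all tested genes and for 78.6% of those in the same range of FPKM. The outermost bounds were -0.31 for MAD2L1 and 0.49 for AURKB, and when 1 library was left out they reached -0.37 and 0.55. With a pseudocount of 0.1 the highest bound was 0.51, also outside that range. These intervals are per gene and are not adjusted for the number of genes. The median standard deviation within groups on the log2 scale was 0.0712 for the 40 genes, 0.109 for all tested genes and 0.0996 for those in the same range of FPKM.

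**Figure D1:**
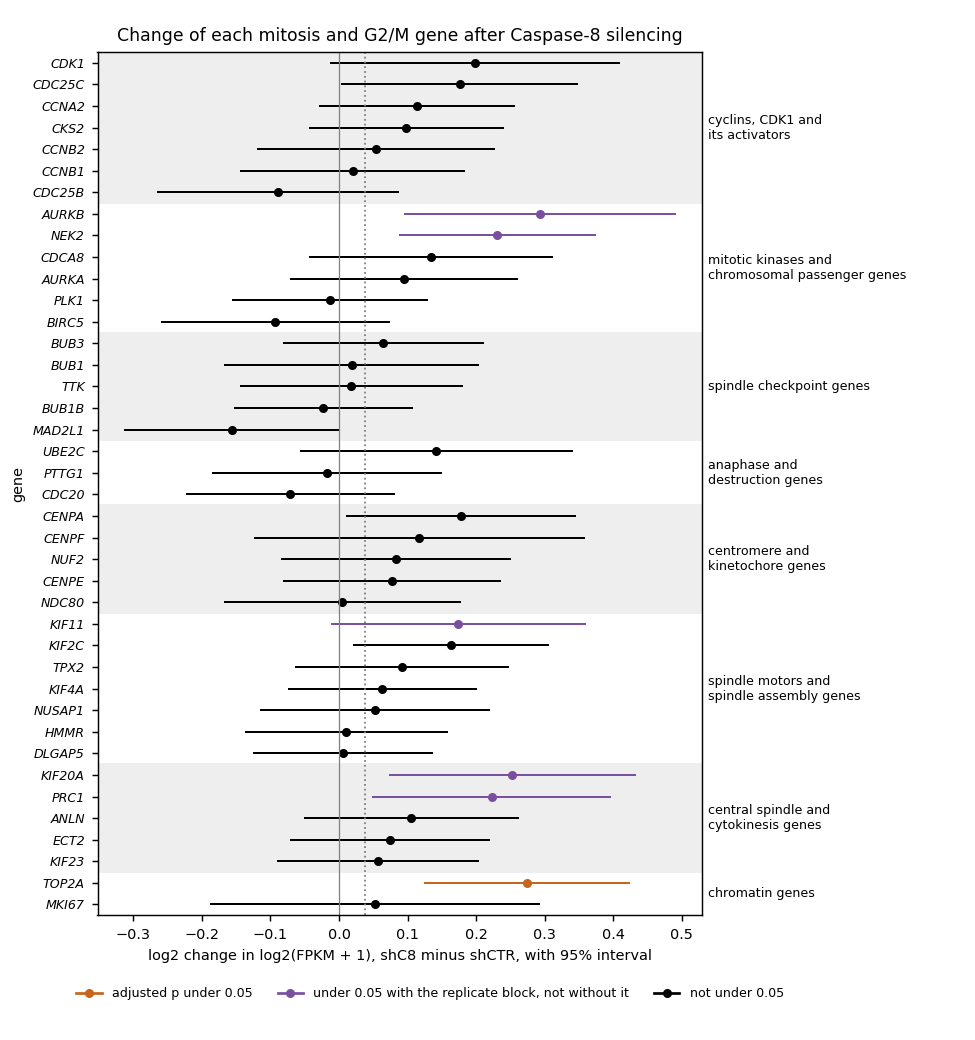
Log2 change (shC8 minus shCTR, on log2(FPKM + 1), horizontal axis) of each of the 40 genes, grouped by role, with points for the estimate, bars for limma's 95% interval, a dotted line at the median of all tested genes (0.04) and colours for calls with or without the replicate block. All bars lie between -0.31 and 0.49, and TOP2A is the 1 gene with an adjusted p under 0.05 when no replicate block is fitted.

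Small differences leaned upward. The log2 change was above 0 for 33 of the 40 genes (82.5%, against 57.9% of all tested genes). The groups did not overlap for 15 genes that were higher in shC8 (37.5%, against 21.7%) and for 1 that was lower, MAD2L1 (2.5%, against 13.1%). Under median-of-ratios scaling, 27 of 40 changes were above 0, beside 50.6% of all tested genes, and CCNB1, BUB1, TTK, DLGAP5, HMMR and NDC80 went below 0. Without shCTR 1, 28 of 40 were above 0 (70%, beside 58.3% of all tested genes). The median of the 40 was then 0.0494, beside 0.0369 over all tested genes. Fitting the replicate number as a block, limma called 6 of the 40 higher (15%, against 16.1%) and 0 lower (against 10.6%). These 6 were TOP2A, AURKB, KIF20A, NEK2, PRC1 and KIF11.

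Levels spanned more than an order of magnitude among the 40 genes. The highest means over the 6 libraries were those of PTTG1, which encodes securin, the inhibitor of the protease that parts sister chromatids (247 FPKM), and UBE2C, the ubiquitin-conjugating enzyme of the APC/C (244 FPKM). CDC25C (7.18 FPKM), CDC25B (8.84 FPKM) and MKI67 (11.9 FPKM) had the lowest. All others lay between 19.5 FPKM for TTK and 141 FPKM for CKS2.

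**Figure D2:**
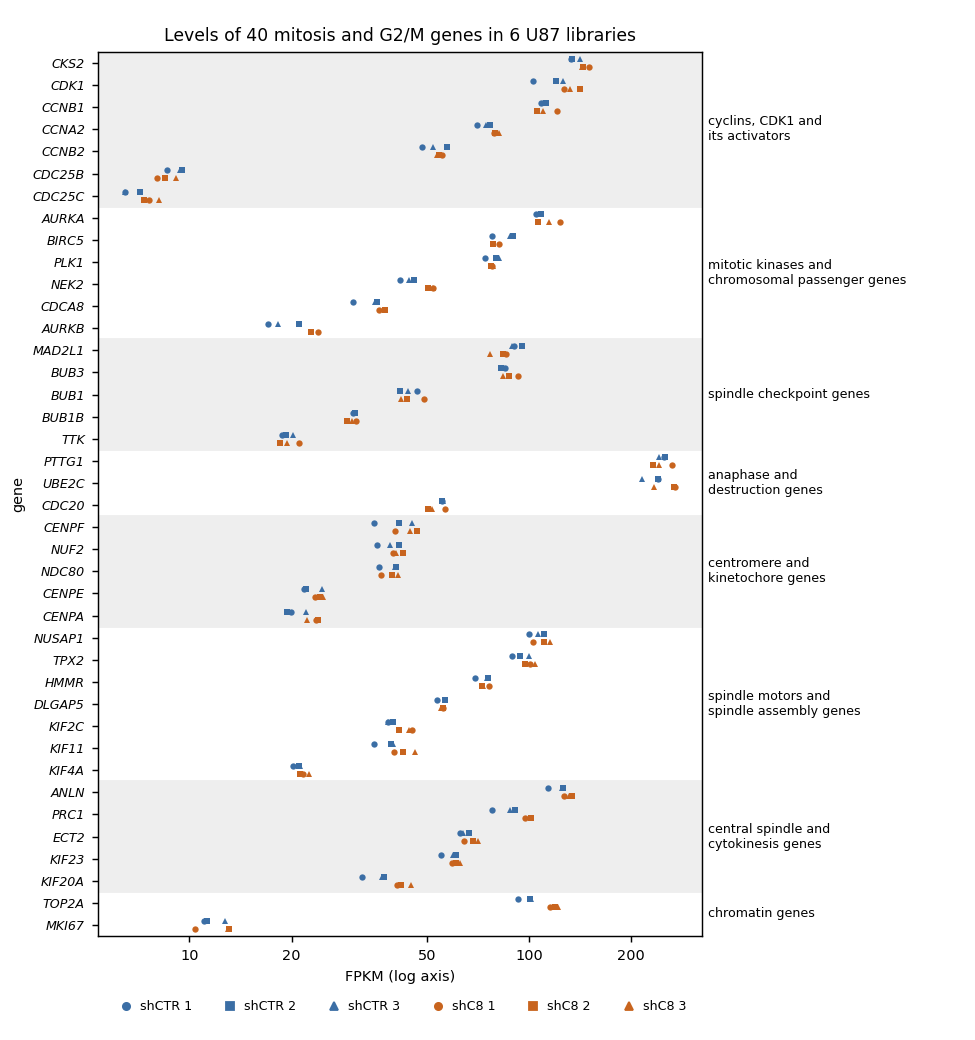
FPKM (log axis) of the 40 genes in each of the 6 libraries, grouped by role, with 1 marker per library and a colour per group. The gap between genes, from a mean of 7.18 FPKM for CDC25C to 247 FPKM for PTTG1, is far wider than the gap between groups for any gene.

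Of the 7 genes of mitotic cyclins, CDK1 and its activators, 0 were called. At an unadjusted p under 0.05 in limma, 1 of the 7 was higher (14.3%, against 18.3% of all tested genes) and 0 were lower. CCNB1, the gene of cyclin B1 (chr5:69167010-69178245 in GENCODE 29, plus strand), measured 109, 113 and 110.3 FPKM in the shCTR libraries against 121, 105 and 110.2 FPKM in the shC8 libraries. The shC8 values reached both above and below all controls, and the log2 change was 0.02 (95% interval -0.14 to 0.18, limma adjusted p = 0.882). CDK1, the kinase gene of mitotic entry (chr10:60778331-60794852, plus strand), measured 103, 120.2 and 126 FPKM in the shCTR libraries against 126, 141 and 132 FPKM in the shC8 libraries. Its groups touched near 126 FPKM without overlapping, with shCTR 1 lowest, and the log2 change of 0.20 did not pass (95% interval -0.01 to 0.41, limma adjusted p = 0.189).

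For CCNB2 and CCNA2, the other mitotic cyclin genes, the log2 changes were 0.05 and 0.11 (limma adjusted p = 0.666 and 0.253), and for CKS2, the gene of a small CDK-binding protein, 0.10 (limma adjusted p = 0.319). The CDC25 phosphatase genes had changes of opposite sign, 0.18 for CDC25C and -0.09 for CDC25B (limma adjusted p = 0.158 and 0.463). CDC25B measured 8.59, 9.48 and 9.35 FPKM in the shCTR libraries against 8.01, 8.46 and 9.14 FPKM in the shC8 libraries, and its groups overlapped.

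Of the 6 genes of mitotic kinases and the chromosomal passenger complex, 0 were called, and AURKB and NEK2 came nearest. At an unadjusted p under 0.05 in limma, 2 of the 6 were higher (33.3%, against 18.3% of all tested genes) and 0 lower. AURKB, the Aurora kinase gene of the passenger complex (chr17:8204733-8210600, minus strand), measured 17.0, 21.1 and 18.3 FPKM in the shCTR libraries against 23.9, 22.8 and 22.8 FPKM in the shC8 libraries. All shC8 libraries were above all controls, and shCTR 2 was closest to them. Control cells averaged 18.8 ± 2.08 FPKM and shC8 cells 23.2 ± 0.639 FPKM (SD, n = 3 each), and the log2 change was 0.29 (limma: SE 0.0843, adjusted p = 0.0636, and 0.0397 with the replicate block). Without shCTR 2, AURKB was called, with a limma adjusted p of 0.0419.

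NEK2, a centrosome kinase gene (chr1:211658657-211675630, minus strand), measured 41.6, 45.8 and 44.3 FPKM in the shCTR libraries against 52.3, 50.5 and 52.3 FPKM in the shC8 libraries. Its groups did not overlap, and its log2 change of 0.23 fell just short of a call (limma: SE 0.0612, adjusted p = 0.0501, and 0.0285 with the replicate block). With a minimum mean of 5 FPKM and with quantile normalization NEK2 was called, at limma adjusted p of 0.0471 and 0.0487. NEK2 has pseudogenes by name in the annotation, which could take or give reads. Pseudogenes by name are also annotated for CCNB2, AURKA, BUB1, BUB3, CDC20, UBE2C, DLGAP5 and MKI67.

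PLK1, the polo-like kinase gene (chr16:23677656-23690367, plus strand), measured 74.4, 79.8 and 81.8 FPKM in the shCTR libraries against 77.6, 77.5 and 78.6 FPKM in the shC8 libraries. Its shC8 values lay within the span of the controls, with a log2 change of -0.01 (95% interval -0.15 to 0.13). Among the remaining passenger genes, the log2 change was -0.09 for BIRC5, which encodes survivin, and 0.13 for CDCA8, which encodes borealin (limma adjusted p = 0.417 and 0.281). BIRC5 measured 77.8, 89.6 and 87.7 FPKM in the shCTR libraries against 81.6, 78.4 and 78.5 FPKM in the shC8 libraries. Its lowest library was a control, so the groups overlapped although the shC8 mean was lower. For AURKA, the Aurora kinase gene of the spindle poles, the log2 change was 0.10 (limma adjusted p = 0.406).

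Of the 5 spindle checkpoint genes, 0 were called, with a median change of 0.02. At an unadjusted p under 0.05 in limma, 0 of the 5 were higher and 1 was lower (20%, against 11.4% of all tested genes). MAD2L1, which encodes the checkpoint protein that inhibits CDC20 (chr4:120055608-120067074, minus strand), had the lowest change of the 40 genes. It measured 90.3, 95.3 and 89.3 FPKM in the shCTR libraries against 85.7, 84.0 and 76.8 FPKM in the shC8 libraries. Every shC8 library was below every control, and the log2 change of -0.16 did not pass (limma: SE 0.0669, adjusted p = 0.168, and 0.0652 with the replicate block). The log2 changes were 0.02 for each of the checkpoint kinase genes BUB1 and TTK, -0.02 for BUB1B, the BUBR1 gene, and 0.06 for BUB3, the gene of their adaptor. BUB1B had the smallest spread within groups of the 40, with 30.3, 30.7 and 30.7 FPKM in the shCTR libraries against 30.9, 29.2 and 30.2 FPKM in the shC8 libraries.

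The 3 genes of anaphase onset had 0 calls (0 at an unadjusted p under 0.05, limma). CDC20, the APC/C coactivator gene, measured 55.5, 55.4 and 56.0 FPKM in the shCTR libraries against 56.8, 50.3 and 51.9 FPKM in the shC8 libraries. Its library shC8 1 lay above the controls and shC8 2 and 3 below them, for a log2 change of -0.07 (limma adjusted p = 0.499). For PTTG1 and UBE2C the log2 changes were -0.02 and 0.14 (limma adjusted p = 0.9 and 0.304). UBE2C also has pseudogenes by name.

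The 5 centromere and kinetochore genes had 0 calls. At an unadjusted p under 0.05 in limma, 1 of the 5 was higher (20%, against 18.3% of all tested genes) and 0 were lower. CENPA, the centromeric histone gene, had the highest log2 change of the 5, 0.18 (limma adjusted p = 0.144). The log2 change was 0.12 for CENPF, the gene of a large kinetochore protein, 0.08 for CENPE, a kinetochore motor gene, and 0.08 and 0.00 for NUF2 and NDC80, genes of the complex that binds microtubules.

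The 12 spindle and cytokinesis genes had 0 calls without a block and 3 with it, all higher, where the block called 16.1% of all tested genes higher. At an unadjusted p under 0.05 in limma, 3 of the 12 were higher and 0 lower, where the shares over all tested genes were 18.3% and 11.4%. KIF20A, a kinesin gene of the central spindle (chr5:138178719-138187715, plus strand), measured 32.3, 37.4 and 36.9 FPKM in the shCTR libraries against 40.7, 42.0 and 44.8 FPKM in the shC8 libraries. Every shC8 library was above every control, and the log2 change was 0.25 (limma: SE 0.0765, adjusted p = 0.0724, and 0.0206 with the replicate block). PRC1, which encodes the protein that bundles central spindle microtubules (chr15:90966038-90995629, minus strand), measured 77.9, 91.2 and 87.9 FPKM in the shCTR libraries against 97.3, 101.2 and 101.2 FPKM in the shC8 libraries. The shC8 libraries were again the higher ones, shCTR 1 was lowest, and the log2 change was 0.22 (limma: SE 0.0738, adjusted p = 0.0924, and 0.0282 with the replicate block). KIF20A overlaps BRD8 and CDC23 on the opposite strand, PRC1 overlaps an antisense gene, and the use of strand in counting was not given, so reads of these genes cannot be told apart. PRC1, NEK2, TOP2A and BUB1B also overlap annotated genes on their own strand, where strand could not separate the reads.

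KIF11, the kinesin gene that pushes spindle poles apart (chr10:92593286-92655395, plus strand), measured 34.9, 39.1 and 39.7 FPKM in the shCTR libraries against 40.05, 42.5 and 46.1 FPKM in the shC8 libraries. Its groups nearly met, and the log2 change was 0.17 (limma: adjusted p = 0.191, and 0.0443 with the replicate block). For KIF2C, a kinesin gene whose product depolymerizes microtubules, the log2 change was 0.16 (limma adjusted p = 0.122), and for KIF4A, a kinesin gene of chromosome arms, 0.06. For the spindle assembly genes TPX2, NUSAP1, HMMR and DLGAP5 the log2 changes were 0.09, 0.05, 0.01 and 0.01. The cytokinesis genes ANLN, which encodes anillin, ECT2, the gene of a RhoA activator, and KIF23, a gene of the centralspindlin complex, had log2 changes of 0.11, 0.07 and 0.06.

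TOP2A (chr17:40388516-40417950, minus strand) measured 92.6, 100.8 and 101.2 FPKM in the shCTR libraries against 115, 119.6 and 122 FPKM in the shC8 libraries. Each shC8 library exceeded each control. Control cells averaged 98.2 ± 4.84 FPKM and shC8 cells 118.9 ± 3.44 FPKM (SD, n = 3 each), 21.1% higher in shC8, and the log2 change was 0.27 (limma: SE 0.0639, adjusted p = 0.0344). Within the lower and the upper range of the numbers in the deposited column names, whose meaning was not stated, the change was 0.25 and 0.26. The lower range held shC8 1 as its only shC8 library, and the upper range held shCTR 2 as its only control. Each of these changes thus rests on a single library in 1 of the groups. The call was lost with median-of-ratios scaling (limma adjusted p = 0.0539) and when shCTR 1, shCTR 2, shCTR 3, shC8 2 or shC8 3 was left out (limma adjusted p between 0.0687 and 0.124).

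MKI67 (chr10:128096659-128126385, minus strand), which encodes Ki-67, the proliferation marker that coats mitotic chromosomes, measured 11.01, 11.2 and 12.7 FPKM in the shCTR libraries against 10.4, 13.1 and 13.0 FPKM in the shC8 libraries. Its lowest and its highest library were both shC8, and the log2 change was 0.05 (95% interval -0.19 to 0.29, limma adjusted p = 0.77).

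The library shCTR 1 stood apart for these genes. It was the lowest of the 6 libraries for 27 of the 40 genes, where it was lowest for 25.2% of all tested genes, and the lowest control for 32 of 40, where the share over all tested genes was 37.2%. The median deviation from the gene means was -0.10 on the log2 scale in shCTR 1 and between -0.01 and 0.06 in the other 5 libraries. Over all tested genes, the median deviation in shCTR 1 was -0.02. Over the 141 further cell division genes described below it was -0.07, again the lowest of the 6 libraries. The low values of shCTR 1 were thus not particular to the 40 genes.

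The summed FPKM of the 40 genes was 2642, 2811 and 2773 in the shCTR libraries against 2932, 2882 and 2881 in the shC8 libraries. In FPKM as deposited the sums did not overlap, and shCTR 1 was lowest. The median-of-ratios factors ran from 0.983 for shCTR 2 to 1.03 for shC8 1. The sums were not scaled by these factors, so their separation holds for unscaled values only. Between same-numbered libraries, the median log2 change of the 40 genes was 0.15 for replicate 1, 0.04 for replicate 2 and 0.05 for replicate 3, beside 0.06, 0.03 and 0.02 over all tested genes. By the spacing of its smallest values shCTR 1 also had the least depth of the 6 libraries, and the part of depth in these differences was not tested.

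**Figure D3:**
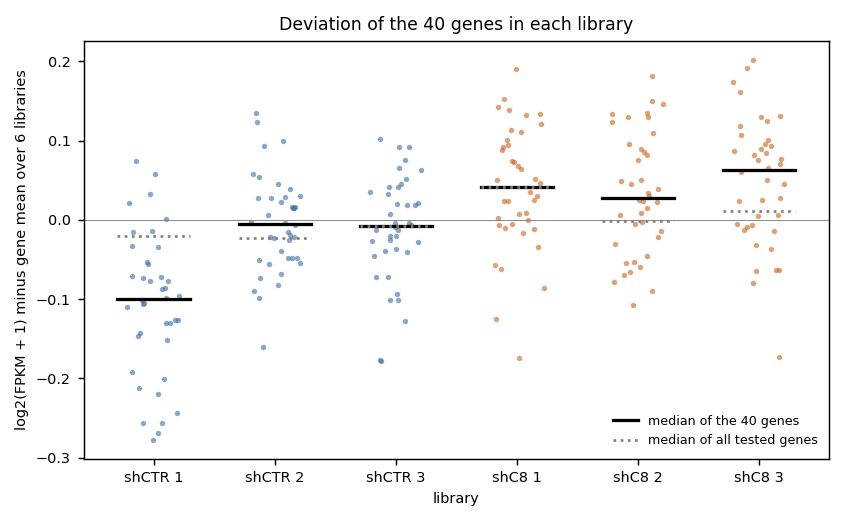
Deviation of log2(FPKM + 1) from the gene's mean over 6 libraries (vertical axis) for the 40 genes in each library, 1 point per gene, with bars for medians. The median of the 40 genes in shCTR 1 is -0.10, below those of the other 5 libraries, while the median of all tested genes there is -0.02.

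A further 141 genes of cell division, in 6 lists that share no gene with the 40, were read beside them. Of these 141, all tested, 7 were called higher (4.96%) and 2 lower (1.42%), with a median log2 change of 0.05. With the replicate block the counts were 20 and 11 (14.2% and 7.8%). All 4 shares lie below those of all tested genes given above. The 7 became 2 without shCTR 1, shCTR 2 or shC8 2, 3 without shC8 3 and 4 without shCTR 3. The 2 became 5 without shC8 1 and 1 without any other single library.

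WEE1 and STAG2 changed strongly among these genes. WEE1, the kinase gene that restrains CDK1, rose from 18.1, 17.4 and 15.3 FPKM in the shCTR libraries to 23.4, 24.9 and 22.9 FPKM in the shC8 libraries, a log2 change of 0.47 (limma: SE 0.0776, adjusted p = 0.0122). STAG2, a cohesin subunit gene, fell from 32.3, 32.9 and 33.0 FPKM to 21.1, 21.6 and 24.7 FPKM, a log2 change of -0.53 (limma: SE 0.0726, adjusted p = 0.00672). For both genes the groups were far apart, and the call held in all 6 fits that left out 1 library. CDKN1A, which encodes the CDK inhibitor p21, measured 64.9, 55.6 and 78.6 FPKM in the shCTR libraries against 76.0, 55.2 and 74.1 FPKM in the shC8 libraries. Its groups overlapped widely, with a log2 change of 0.04 (limma adjusted p = 0.888).

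Among 18 APC/C genes were 2 rises (11.1%, against 7.14% of all tested genes) and 1 fall (5.56%, against 4.94%). With the replicate block, 6 of the 18 were called higher (33.3%, against 16.1% of all tested genes) and 1 lower (5.56%, against 10.6%). The rises without it were the subunit gene ANAPC2 (log2 change 0.35, limma adjusted p = 0.0492) and the coactivator gene FZR1, which encodes CDH1 (0.35, limma adjusted p = 0.0262), and the fall was the subunit gene CDC27 (-0.26, limma adjusted p = 0.0293). Of 18 further mitotic entry genes, WEE1 and CCNF, the cyclin F gene (0.33, limma adjusted p = 0.0374), rose (11.1%), 0 fell and 16 did not pass. With the replicate block, 4 of these 18 were called higher (22.2%) and 2 lower (11.1%). Of 27 further spindle genes 1 rose (3.7%), NUMA1, which encodes a spindle pole organizer (0.30, limma adjusted p = 0.0352). With the replicate block, 4 of these 27 were called higher (14.8%) and 3 lower (11.1%). Of 19 condensin, cohesin and separase genes, STAG2 alone passed (5.26% lower). Of 34 further kinetochore and centromere genes 0 were called, with a median log2 change of 0.05. At an unadjusted p under 0.05 in limma, 3 of the 34 were higher (8.82%, against 18.3% of all tested genes) and 4 lower (11.8%, against 11.4%). With the replicate block, 2 of these 34 were called higher (5.88%) and 4 lower (11.8%). For calls, the shares over all tested genes are those given beside the APC/C genes.

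The calls of ANAPC2, FZR1, CDC27, NUMA1 and CCNF were less stable. FZR1 kept its call in 2 of the 6 fits that left out 1 library and the other 4 genes in 1 of 6, and each of the 5 lost it without shCTR 1, shCTR 2, shC8 2 or shC8 3 (limma adjusted p up to 0.144). ANAPC2 also lost it without shC8 1, and CDC27, NUMA1 and CCNF without shCTR 3. ANAPC2, NUMA1 and CCNF further lost it with median-of-ratios scaling (limma adjusted p up to 0.0684), with the column number range in the model (up to 0.0766) and without the filter on low values (up to 0.0989).

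Of the factors of the mitotic programme, FOXM1, MYBL2 and E2F4 were not called. FOXM1, the forkhead activator gene, averaged 26.1 ± 0.292 FPKM in shCTR against 27.1 ± 0.537 FPKM in shC8 (SD, n = 3 each), a log2 change of 0.05 (95% interval -0.08 to 0.18, limma adjusted p = 0.591). For MYBL2, the B-MYB gene, the log2 change was 0.16 (95% interval -0.03 to 0.35, limma adjusted p = 0.236), and for E2F4, the gene of a repressor E2F, 0.13 (95% interval -0.07 to 0.32, limma adjusted p = 0.355). The groups of FOXM1 and MYBL2 did not overlap, with shC8 higher, and those of E2F4 did. Of the 25 factor genes listed, 8 were higher without overlap (32%, against 21.7% of all tested genes). By call, 2 of the 25 rose (8%, against 7.14%), 0 fell (against 4.94%) and 23 did not pass. With the replicate block 4 were called higher (16%, against 16.1%) and 0 lower (against 10.6%). RB1, the retinoblastoma protein gene, was among those that rose (0.26, limma adjusted p = 0.0293). RB1 lost its call without any single library other than shC8 1 (limma adjusted p up to 0.106). Among the 40 mitotic genes, the median log2 change was 0.06 for the 26 with the CHR letters in a promoter window and 0.14 for the other matched genes, a description with no test.

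Of 41 DNA replication genes, which act in the phase before, 0 were higher (against 7.14% of all tested genes) and 2 lower (4.88%, near the 4.94% of all tested genes called lower), at a median log2 change of -0.04. At an unadjusted p under 0.05 in limma, 2 were higher (4.88%, against 18.3%) and 4 lower (9.76%, against 11.4%). With the replicate block 2 were called higher (4.88%, against 16.1% of all tested genes) and 4 lower (9.76%, against 10.6%). The 2 called lower without it were subunits of the clamp loader, RFC4 (-0.36, limma adjusted p = 0.0282) and RFC3 (-0.25, limma adjusted p = 0.0341). RFC4 lost its call without any single library other than shC8 1 and RFC3 without any single library (limma adjusted p up to 0.102 and 0.11).

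**Figure D4:**
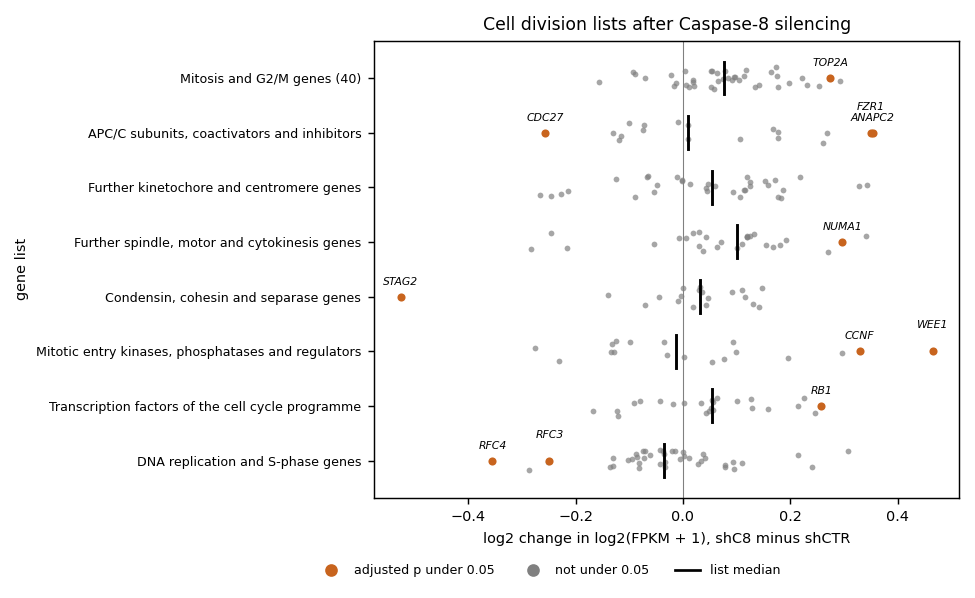
Log2 change (shC8 minus shCTR, on log2(FPKM + 1), horizontal axis) of the 40 mitosis and G2/M genes and of the further cell cycle lists, 1 point per gene shown, with bars for list medians and a second colour for genes with a limma adjusted p under 0.05. Of the 40 genes TOP2A alone has that colour, and STAG2 at -0.53 and WEE1 at 0.47 lie farthest out among the named genes of the other lists.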

How the data were processed

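Stranded, ribosome-depleted libraries of U87 RNA were sequenced, per the labels' protocols. The authors deposited 1 table of FPKM per gene symbol and library. The submitters' processing notes name TopHat, Cufflinks, Cuffdiff and hg38, with no version or role. The sources used here give neither the annotation, nor the use of strand, nor any scaling between libraries. Because FPKM is relative to a library total, abundant genes that change can shift the rest. The values are not counts, so no count model was run.

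Groups came from sample titles. The moderated test of limma (two-sided, with a mean trend) was run on log2(FPKM + 1), which understates changes of low genes, for genes whose FPKM averaged 1 or more, with Benjamini-Hochberg adjustment over all of them and a threshold of 0.05. Both groups use the replicate numbers 1 to 3. Across genes, the deviations of libraries with equal numbers had correlations of 0.397, 0.266 and 0.291. Since each exceeded 0.1, an alternative fit with a replicate block treated equal numbers as pairs. That choice rests on the data alone, as no label states a pairing. The main fit had no term for the replicate number, and its p-values are unpaired. Blocked counts stand beside list counts that they move.

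The 40 genes and the lists were chosen with earlier results of these data known. Given in every library were called genes, the 4 highest and 4 lowest log2 changes among the others, and CCNB1, CDK1, PLK1, MKI67 and TOP2A. KIF11 and BUB1B were added after their values were seen. From each further list up to 3 called genes were named, and FOXM1, MYBL2, E2F4 and CDKN1A whatever their values. Values of 1 gene of the transcription factor list and of 1 immune marker are not reported here. Of the list symbols, 8 were found in the table under RefSeq synonyms. Gene positions and overlaps came from GENCODE 29 (GRCh38), where 23 of the 40 genes overlapped another gene. Alternatives were another pseudocount, other filters, quantile and median-of-ratios scaling, the block, no trend, a term for the column number range, and leaving out each library. Fits were tested on simulated data. R 4.3.3, limma 3.58.1 and Python 3.11.15 were used.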

Additional observations from a re-analysis of the deposited data

How the results depend on the processing

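With no counts in the table, depth cannot be weighed, and 3 libraries a group limit what could be called. No member was called lower under any of the 14 alternatives. Members called higher numbered 2 with a minimum mean of 5 FPKM, 2 with quantile normalization, 0 with median-of-ratios scaling, 6 with the replicate block and 0 to 1 when 1 library was left out. The median change of the members stayed between 0.0384 and 0.0942 in all 14. CASP8 stayed called in all 14. Among the members, the block changed no call beyond the 5 genes it added to TOP2A.

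All calls numbered 1401, and 3086 with the replicate block, and 522 to 1376 when 1 library was left out. For the further cell division genes, 7 higher became 4 without the filter, 4 with median-of-ratios scaling, 4 with a column number range term, 20 with the replicate block and 2 to 8 when 1 library was left out. Their 2 lower became 4 with median-of-ratios scaling, 11 with the block and 1 to 5 when 1 library was left out. For DNA replication genes, 0 higher became 2 with the block and 0 to 1 when 1 library was left out, and 2 lower became 4 with quantile normalization, 4 with median-of-ratios scaling, 4 with the block and 0 to 2 when 1 library was left out. Fewer samples enter the fits without 1 library; for the other settings the cause was not tested.

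Signs of members near 0 turned in 9 of 320 values outside the fits without 1 library, none of them called. With median-of-ratios scaling the changes were -0.0187 for CCNB1, -0.0192 for BUB1, -0.0190 for TTK, -0.0324 for DLGAP5, -0.0276 for HMMR and -0.0332 for NDC80. NDC80 was at -0.0150 with quantile normalization and -0.0324 with a column number range term, and PTTG1 at 0.00326 with that term. Leaving out 1 library, changes ran from -0.0359 to 0.0636 for CCNB1, -0.00368 to 0.117 for CCNB2, -0.0516 to 0.0154 for PLK1, -0.0458 to 0.0634 for BUB1, -0.0282 to 0.0573 for TTK, -0.0691 to 0.0235 for PTTG1, -0.0196 to 0.0186 for DLGAP5, -0.0303 to 0.0327 for HMMR, -0.0472 to 0.0486 for NDC80, -0.00115 to 0.153 for MKI67 and -0.0753 to 0.189 for CDKN1A.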
